A study of Mus musculus with 24 samples.

Results

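Glutathione transferases join the tripeptide glutathione to reactive molecules. The resulting conjugates leave the cell and can then be trimmed by gamma-glutamyltransferase, which Ggt1 encodes. In the kidney Ggt1 is best known from the brush border of the proximal tubule, where it opens the breakdown of glutathione and of its conjugates, the glutathione conjugate of cisplatin among them. The transferases fall into cytosolic classes (mu, alpha, pi, theta, omega), a mitochondrial and peroxisomal class (kappa) and a membrane-bound family.

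The genes described here were chosen by name: 8 glutathione transferases (Gstm1, Gstm2, Gsta4, Gstp1, Gstt1, Gstk1, Gsto1 and Mgst1) and Ggt1. All 9 were found among the 55416 gene identifiers, and all 9 were among the 18005 genes with enough counts to be tested. Poly(A) RNA of the kidney inner medulla was sequenced in 24 libraries from C57BL/6 mice, a common inbred strain, at 9 to 10 weeks of age. The groups were female cisplatin (5 libraries), female saline (7), male cisplatin (6) and male saline (6). Each animal was given 100 µl into the peritoneum, either saline or cisplatin at 15 mg/kg, and the tissue was taken 72 h later. Cisplatin is a platinum drug against tumours that injures the kidney. The labels do not state that every library came from a single mouse, so the spread behind each p-value is that between libraries. The comparisons ask how the genes of glutathione conjugation differed after cisplatin in each sex, and between the sexes.

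Library totals lay between 18.1 and 27.3 in units of 1000000 counts. The tissue label was checked against marker genes: the 7 principal cell markers summed to 5407 to 9014 CPM in female cisplatin, 6219 to 10406 CPM in female saline, 4645 to 10044 CPM in male cisplatin and 7391 to 8891 CPM in male saline libraries, where CPM is counts per 1000000 scaled by library composition. The 16 proximal tubule markers, which belong to an outer zone of the kidney, were also present, with sums of 76.4 to 442 CPM in female cisplatin, 180 to 622 in female saline, 66.9 to 1140 in male cisplatin and 183 to 1136 in male saline libraries. The 6 thick ascending limb markers summed to 3909 to 9407 CPM in female cisplatin and 1152 to 12103 CPM in female saline libraries. In males their sums were 1956 to 8015 CPM under cisplatin and 2727 to 13784 CPM under saline. These sums overlapped with those of the principal cell markers in every group. Sums over different genes do not give the share of a tissue, and the part of outer tissue in each library was not measured. Male cisplatin library 5 stood apart: ribosomal protein genes held 5.75% of its counts, above the 2.16% to 3.95% of every other library, and its mitochondrial transcript mt-Co1 was at 6551 CPM, below the 9894 to 28079 CPM of the others. The ribosomal share also moved with treatment: it was 2.49% to 3.95% in female cisplatin and 2.16% to 2.67% in female saline libraries, and 2.40% to 5.75% in male cisplatin and 2.21% to 2.32% in male saline libraries. Its part in the results was not tested.

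Members of this family can be near copies of each other, and the sequences below show how far reads can tell them apart. The first 60 coding bases are printed for the most abundant pair and for the pair with the most shared sequence, read from the GENCODE M21 transcripts of GRCm38 (mm10). Capitals mark the positions at which the members of a pair differ.
Gstm1, chromosome 3: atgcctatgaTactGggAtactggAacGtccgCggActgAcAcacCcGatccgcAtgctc
Gstm2, chromosome 3: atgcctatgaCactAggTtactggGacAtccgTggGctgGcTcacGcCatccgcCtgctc
Gstp1, chromosome 19: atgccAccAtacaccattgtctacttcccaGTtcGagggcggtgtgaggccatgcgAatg
Gstp2, chromosome 19: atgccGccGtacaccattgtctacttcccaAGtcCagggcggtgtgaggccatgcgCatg

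The mu class genes differed at 12 of these 60 positions and the pi class genes at 6. Over the whole coding sequence Gstm1 and Gstm2 were identical at 85.9% of 654 positions, and Gstp1 and its neighbour Gstp2 at 98.1% of 630. Of the 1737 stretches of 50 bases in Gstp1 transcripts, 33.7% also occurred in Gstp2. For Gstm1 18.9% of such stretches were shared with another gene, most of them with the pseudogene Gstm2-ps1, and for Gstm2 5.65%. In the other 6 genes 0% were shared. Gstp2 was far below Gstp1 in level, at 1.98 ± 0.715 against 87.8 ± 10.5 CPM per kb of exon (SD, n = 13 saline libraries), and Gstm2-ps1 averaged 0.514 to 0.727 CPM over the groups. Reads that fit both copies could be split between them or dropped, so the counts of Gstp1, Gstm1 and Gstm2 carry this uncertainty.

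In the annotation of that build Gstm1 (ENSMUSG00000058135) lies at chr3:108012255-108017973 and Gstm2 (ENSMUSG00000040562) at chr3:107981702-107986453, both on the minus strand. Gstt1 (ENSMUSG00000001663, chr10:75783813-75798584, minus strand) and Ggt1 (ENSMUSG00000006345, chr10:75561604-75586200, plus strand) share chromosome 10. Gstk1 (ENSMUSG00000029864) lies at chr6:42245935-42250447 and Mgst1 (ENSMUSG00000008540) at chr6:138140316-138156755, both on the plus strand. Gstp1 (ENSMUSG00000060803) lies at chr19:4035407-4037985 on the minus strand, and Gsta4 (ENSMUSG00000032348) at chr9:78182774-78209349 on the plus strand. Gsto1 (ENSMUSG00000025068, chr19:47854970-47864790, plus strand) lies within the span of Cfap43, a gene of the opposite strand that averaged 1.39 to 2.11 CPM over the groups. The sources used here do not give the strand setting of the counting, so reads of Gsto1 and Cfap43 cannot be told apart where their exons overlap.

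In saline inner medulla the mu class dominated. Levels per kb of exon put Gstm1 first at 488 ± 61.2 CPM per kb and Gstm2 next at 407 ± 55.2 (SD, n = 13 saline libraries of both sexes), and their ranges of mean ± SD overlapped. Gstp1, the pi class enzyme, followed at 87.8 ± 10.5 CPM per kb and Gstt1, of the theta class, at 65.2 ± 10.1. Among the 9 genes, both stood apart from their neighbours in this order.

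Below them came Gsto1, of the omega class, which reduces dehydroascorbate, at 26.2 ± 2.29 CPM per kb. Gstk1, the kappa class enzyme of mitochondria and peroxisomes, stood at 21.4 ± 2.32 CPM per kb and the membrane-bound Mgst1 at 17.3 ± 3.67. Gsta4, an alpha class enzyme that acts on hydroxynonenal, a product of lipid peroxidation, was at 12.7 ± 2.81 CPM per kb and Ggt1 at 6.48 ± 3.32. The ranges of mean ± SD overlapped for Gstk1 and Mgst1 and for Mgst1 and Gsta4, and the saline libraries varied most, relative to the mean, in Ggt1. Among the transferases outside the chosen 9, only Mgst3, a membrane-bound relative, exceeded Gstt1 in this ranking, at 72.1 ± 20.6 CPM per kb.

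In cisplatin libraries the order of the same 9 genes differed in 1 place, since Mgst1 exceeded Gstk1. Mgst1 stood at 31.8 ± 20.6 and Gstk1 at 20.7 ± 1.09 CPM per kb in female cisplatin libraries (SD, n = 5), and in male cisplatin libraries the levels per kb were 38.7 ± 14.9 for Mgst1 and 24.1 ± 7.95 for Gstk1 (n = 6).

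**Figure D1:**
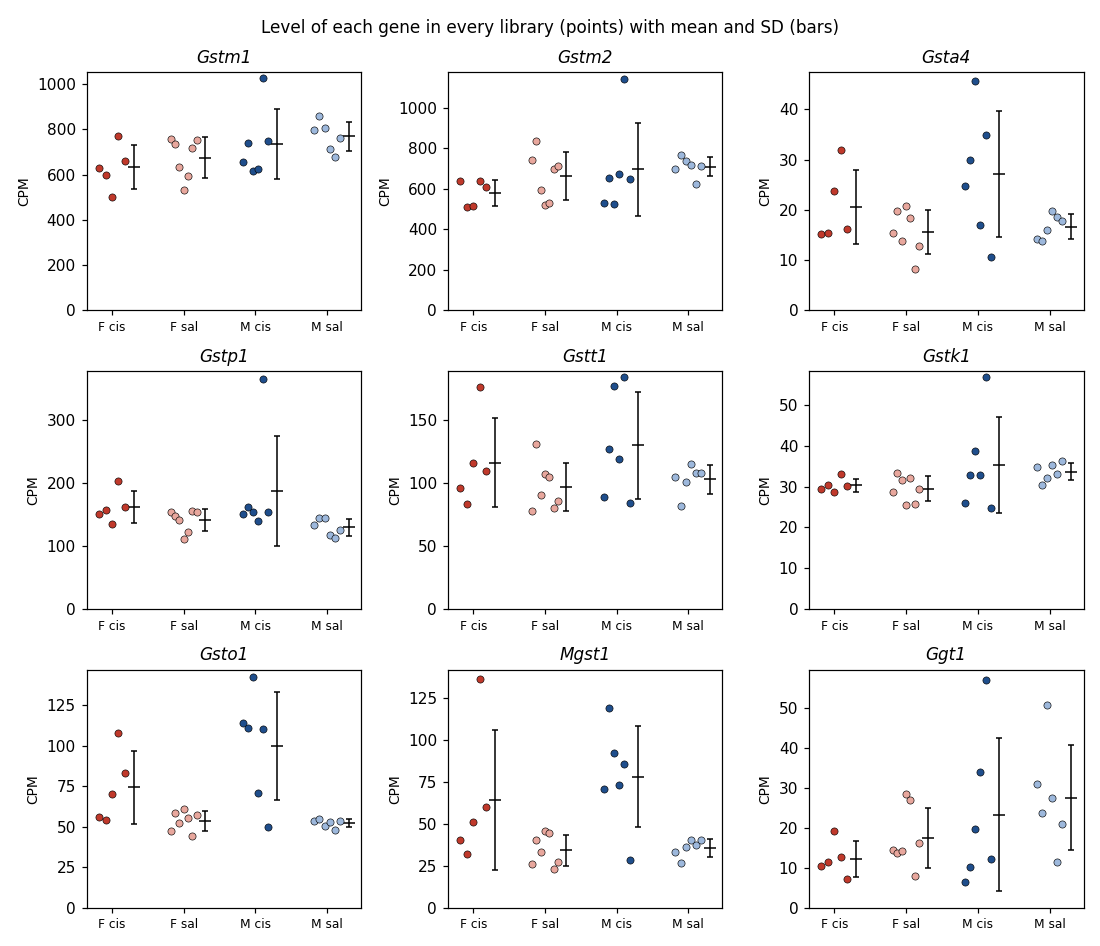
CPM (linear axis from 0) of the 9 genes in every library, with female cisplatin (F cis), female saline (F sal), male cisplatin (M cis) and male saline (M sal) from left to right in each panel; points are libraries, and the bars give mean and SD. Gsto1 and Mgst1 show 5 of 6 male cisplatin libraries above every male saline library, while Gstm1 and Gstm2 overlap in all groups.

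In males, 3 of the 9 genes rose after cisplatin, Gsto1, Mgst1 and Gstp1, and 0 fell (edgeR's quasi-likelihood test with Benjamini-Hochberg adjustment over all genes, adjusted p under 0.05). Of all genes tested, 13.2% were called higher, 7.54% lower and 20.7% in either direction in the same comparison. The median log2 fold change was 0.33 over the 9 genes and 0.02 over all genes tested. DESeq2 called 4 of the 9, adding Gsta4. Because the tissue was sequenced in bulk, a change in the number of cells of a type and a change in RNA per cell cannot be told apart in any of these differences.

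Gsto1 stood at 114, 111, 142, 70.6, 110 and 49.7 CPM in male cisplatin libraries 1 to 6, against 53.3, 54.6, 50.5, 53.2, 48.2 and 53.6 CPM in male saline libraries. The saline libraries hardly varied, 5 of 6 cisplatin libraries lay above all of them, and library 6 lay among them. The fitted log2 fold change was 0.93 ± 0.18 (SE), a 1.91-fold higher level with adjusted p = 0.00214 by edgeR, and the call held under all 31 alternative fits, with log2 fold changes of 0.80 to 1.07.

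Mgst1, a transferase of the endoplasmic reticulum and outer mitochondrial membrane with peroxidase activity, showed the same division. It stood at 70.4, 119, 91.8, 72.8, 85.3 and 28.4 CPM in male cisplatin libraries 1 to 6, against 33.4, 26.4, 36.0, 40.1, 37.1 and 40.1 CPM in male saline libraries. Again library 6 alone fell within the saline range, and the other 5 cisplatin libraries did not overlap with it. The log2 fold change was 1.13 ± 0.30, or 2.20-fold higher, with adjusted p = 0.011 by edgeR, and it ranged from 0.97 to 1.31 over the 31 alternative fits, all of which called it.

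Gstp1 passed the test in males, but the size of its change rested on 1 library. It stood at 151, 163, 155, 140, 366 and 155 CPM in male cisplatin libraries 1 to 6, against 133, 145, 145, 118, 113 and 126 CPM in male saline libraries. Library 5 was more than double any other, while 4 of the remaining 5 cisplatin libraries still lay just above the highest saline value. The log2 fold change was 0.53 ± 0.18 (adjusted p = 0.0351 by edgeR) with that library and 0.22 without it (adjusted p = 0.129). The call was also lost in 8 of the other alternative fits, among them the leaving out of male saline library 1, 4, 5 or 6, where the log2 fold change stayed between 0.50 and 0.54.

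Gsta4 did not pass in males. It had 24.7, 29.9, 45.6, 17.0, 34.9 and 10.5 CPM in male cisplatin libraries 1 to 6, against 13.7 to 19.8 CPM in male saline libraries with a median of 16.8. The cisplatin libraries spread to both sides, 4 above every saline library and library 6 below them all. The log2 fold change was 0.70 ± 0.27 with adjusted p = 0.0662 by edgeR. Without male cisplatin library 4 it was 0.80 with adjusted p = 0.0395, and without library 6 0.87 with adjusted p = 0.0102, so 2 libraries decided this call.

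The remaining 5 genes did not pass in males. Gstm1 had 614 to 1028 CPM in male cisplatin libraries with a median of 697, against 679 to 858 with a median of 779 in male saline libraries, a log2 fold change of -0.07 ± 0.13. Gstm2 had 524 to 1143 CPM in male cisplatin libraries with a median of 650, against 623 to 768 with a median of 714 in male saline libraries, a log2 fold change of -0.03 ± 0.15. For both genes the highest value was that of cisplatin library 5, and the cisplatin median lay below the saline median.

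Gstt1, with 84.5 to 184 CPM in male cisplatin libraries (median 123) and 81.8 to 115 CPM in male saline libraries (median 106), differed by 0.33 ± 0.19 on the log2 scale (adjusted p = 0.2 by edgeR). Gstk1 was at 24.8 to 56.8 CPM in male cisplatin libraries (median 32.8) and at 30.5 to 36.2 CPM in male saline libraries (median 34.0), a log2 fold change of 0.07 ± 0.14 that turned to -0.13 without cisplatin library 5. The groups overlapped for both genes, with a wider spread under cisplatin.

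In females, 0 of the 9 genes passed by edgeR or by DESeq2, where 0.272% of all genes tested were called by edgeR. At an unadjusted p under 0.05, which 14.8% of all genes tested reached by edgeR, edgeR and DESeq2 each named 2 of the 9, and by edgeR these were Gsto1 and Mgst1. The median log2 fold change was 0.20 over the 9 genes and 0.01 over all genes tested.

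Gsto1 had 55.8, 54.2, 69.9, 108 and 83.0 CPM in female cisplatin libraries 1 to 5, against 44.0 to 60.8 CPM with a median of 55.4 in female saline libraries. Libraries 3, 4 and 5 lay above every saline library, and libraries 1 and 2 among them. Its log2 fold change was 0.47 ± 0.18 (unadjusted p = 0.0184, adjusted p = 0.262 by edgeR), and 0.29 without female cisplatin library 4.

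Mgst1 had 40.6, 32.2, 51.1, 136 and 60.2 CPM in female cisplatin libraries 1 to 5, against 22.8 to 45.5 CPM with a median of 33.0 in female saline libraries. The same 3 cisplatin libraries lay above every saline library. Its log2 fold change of 0.90 ± 0.29 (unadjusted p = 0.00514, adjusted p = 0.183 by edgeR) was 0.43 when female cisplatin library 4 was left out.

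The other transferases overlapped between female groups. Gstp1 had 136 to 204 CPM in female cisplatin and 112 to 156 CPM in female saline libraries, a log2 fold change of 0.20 ± 0.18, and Gsta4 had 15.1 to 32 CPM in female cisplatin and 8.16 to 20.7 CPM in female saline libraries, a log2 fold change of 0.40 ± 0.27. The values were 0.27 ± 0.19 for Gstt1, 0.04 ± 0.14 for Gstk1, -0.09 ± 0.13 for Gstm1 and -0.19 ± 0.16 for Gstm2.

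**Figure D2:**
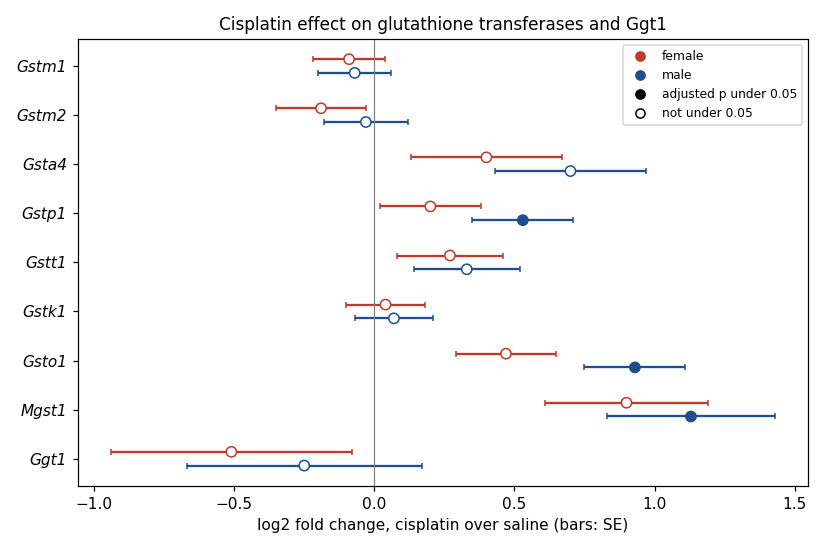
Log2 fold change of cisplatin over saline with its SE for the 9 genes, female above male in each row; filled points have an adjusted p under 0.05. The 3 filled points are male Gstp1 (0.53), Gsto1 (0.93) and Mgst1 (1.13), and each female estimate lies to the left of the male one.

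The cisplatin effect averaged over both sexes was called for 4 of the 9 genes, all higher, where 16.2% of all genes tested were called higher and 27.1% in either direction. Mgst1 was higher by 1.02 ± 0.21 on the log2 scale (adjusted p = 0.00155 by edgeR) and Gsto1 by 0.70 ± 0.13 (adjusted p = 0.00082), and both calls held in all 30 alternative fits. Gsta4 (0.55 ± 0.19, adjusted p = 0.0361) lost its call in 14 of the 30, among them the fit without male cisplatin library 5 (0.50, adjusted p = 0.0619), and Gstp1 (0.37 ± 0.13, adjusted p = 0.0328) in 6, and with the replicate number as a block only Gsto1 and Mgst1 were called. Leaving out female cisplatin library 4 also left those 2 calls. Single libraries decided 2 further calls in the mean effect: Gstm2 passed, at -0.22 (adjusted p = 0.0491), without male cisplatin library 5, and Gstt1 passed, at 0.35 (adjusted p = 0.0382), without male cisplatin library 6, where all libraries gave -0.11 ± 0.11 and 0.30 ± 0.13.

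A difference between the sexes in the response was not shown. The interaction, the female effect minus the male effect, was called for 0 of the 9 genes by edgeR or DESeq2 (0% of all genes tested by edgeR, 4.29% at an unadjusted p under 0.05, and 0 of the 9 at that level by either tool). All 9 estimates were below 0, from -0.03 for Gstm1 and Gstk1 to -0.46 ± 0.26 for Gsto1 (unadjusted p = 0.0892), although Gstp1 turned to 0.03 when male cisplatin library 5 and female saline libraries 1 and 6 were left out together. Of all 18005 genes tested, 9598 had an interaction estimate below 0. The 9 genes share the same libraries, so their signs are not independent.

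Female against male levels gave 0 calls among the 9 genes under saline (0.189% of all genes tested) and 0 under cisplatin (0.156%) by edgeR, and 0 by DESeq2. At an unadjusted p under 0.05, 0 of the 9 passed under saline by either tool (3.22% of all genes tested by edgeR) and 2 under cisplatin by either tool (9.72%), by edgeR Gsto1 and Ggt1. Under cisplatin Gsto1 averaged 74.2 ± 22.3 CPM in females (SD, n = 5) and 99.5 ± 33.4 CPM in males (n = 6), a log2 difference of -0.42 ± 0.19 (adjusted p = 0.488). All 9 estimates under cisplatin were negative, as were 9626 of all 18005 genes tested, but that of Gstp1, -0.22 over all libraries, was 0.09 without male cisplatin library 5.

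Ggt1 varied more between libraries than between groups. It had 10.4, 11.4, 19.3, 12.8 and 7.19 CPM in female cisplatin libraries 1 to 5, against 7.86 to 28.5 CPM with a median of 14.5 in female saline libraries. It had 6.53, 10.1, 19.8, 34.1, 57.0 and 12.2 CPM in male cisplatin libraries 1 to 6, against 31.1, 23.7, 50.7, 27.5, 11.5 and 21.0 CPM in male saline libraries. Every group spanned at least a doubling, and both cisplatin groups overlapped with their saline groups. The log2 fold change was -0.51 ± 0.43 in females (adjusted p = 0.592 by edgeR) and -0.25 ± 0.42 in males (adjusted p = 0.696). Single libraries moved both values: the female one to -0.74 without female cisplatin library 3 and to -0.35 without female saline library 4, and the male one to -0.74 without male cisplatin library 5 and to 0.00 without male saline library 3.

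The level of Ggt1 followed that of tubule markers of the outer kidney. A tubule marker score, the mean log2 CPM of 22 markers of the proximal tubule and the thick ascending limb, correlated with log2 CPM of Ggt1 at Pearson's r = 0.90 over the 24 libraries and Spearman's rho = 0.95 (permutation p = 1e-05 for each, the smallest that the permutations can give, and 9e-05 adjusted over the 9 genes). Without the 2 libraries farthest from the median score r was 0.90. Within groups r was 0.96 in female saline (n = 7, exact permutation p = 0.000397, adjusted p = 0.00357), 0.89 in male cisplatin (n = 6, exact p = 0.0264, adjusted p = 0.237) and 0.94 in male saline (n = 6, exact p = 0.00694, adjusted p = 0.0625). No correlation was computed within the 5 female cisplatin libraries, since a minimum of 6 libraries was set. This relation and those below were chosen after values had been seen.

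The score itself averaged 3.98 ± 0.721 in female cisplatin and 4.50 ± 0.567 in female saline libraries, and 4.2 ± 1.08 in male cisplatin and 5.09 ± 0.592 in male saline libraries (SD). None of the 16 proximal tubule markers was at 0 in any group, and 0 were called in either sex. With the score in the fit the log2 fold changes of Ggt1 were 0.05 in females and 0.42 in males. No other gene of the 9 had an adjusted p under 0.05 for Pearson's r with the score, and Gstp1 had a rho of -0.53 (adjusted p = 0.0385) with an r of -0.18.

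Gsto1 and Mgst1 differed among the cisplatin libraries along with Lcn2, which encodes the secreted injury marker lipocalin. Lcn2 stood at 546, 111, 122, 3529 and 2097 CPM in female cisplatin libraries 1 to 5, against 49.4 to 129 CPM in female saline libraries. It stood at 4021, 6589, 2578, 1265, 2470 and 213 CPM in male cisplatin libraries 1 to 6, against 57.8 to 67.3 CPM in male saline libraries. Male cisplatin library 6, which lay within the male saline range for Gsto1 and Mgst1, was the lowest of its group for Lcn2.

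Over the 11 cisplatin libraries, log2 CPM of Lcn2 correlated with Gsto1 at r = 0.84 (permutation p = 0.00168, adjusted p = 0.00756) and rho = 0.87 (adjusted p = 0.00702), and with Mgst1 at r = 0.86 (permutation p = 0.00091, adjusted p = 0.00756) and rho = 0.83 (adjusted p = 0.013), adjusted over the 9 genes. Without the 2 libraries farthest from the median r was 0.89 for Gsto1 and 0.91 for Mgst1. Gsta4 had r = 0.62 (adjusted p = 0.129) and the other 6 genes lay between -0.04 and 0.56 with adjusted p of 0.173 or more. Within the 6 male cisplatin libraries r was 0.87 for Gsto1 and 0.93 for Mgst1 (exact permutation, adjusted p = 0.1 for each), and without the 2 farthest libraries it was 0.76 and, for Mgst1, 0.03, so the male relation for Mgst1 rested on those libraries. No correlation was computed within the 5 female libraries alone. The share of all genes tested that reach such r with Lcn2, or with the tubule marker score, was not computed. These relations are therefore not shown to be particular to Gsto1, Mgst1 or Ggt1.

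**Figure D3:**
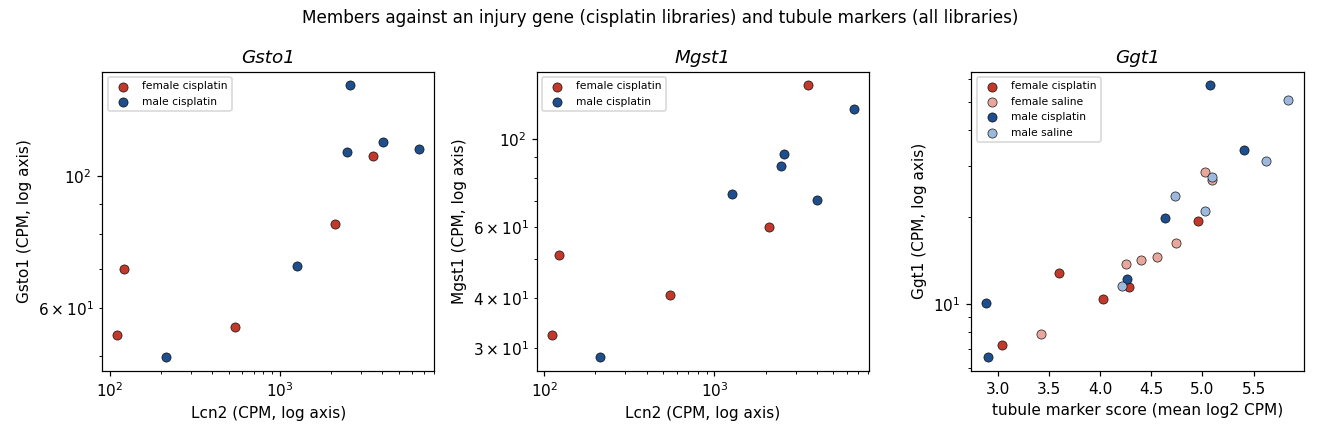
Left and middle, CPM of Gsto1 and Mgst1 against CPM of Lcn2 in the 5 female and 6 male cisplatin libraries (log axes); right, CPM of Ggt1 (log axis) against the tubule marker score (mean log2 CPM) in all 24 libraries, coloured by group. Points rise together in each panel, with r of 0.84, 0.86 and 0.90 on the log2 scale.

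Markers of other cell types were also called, most of them in males. All 5 erythroid genes passed in both sexes and were lower, with sums of 5.9 to 13.9 CPM in female cisplatin and 97.5 to 391 CPM in female saline libraries, and of 4.67 to 15.3 CPM in male cisplatin and 149 to 380 CPM in male saline libraries. In males, 4 of 5 endothelial and 4 of 5 fibroblast genes were lower in male cisplatin libraries, with endothelial sums of 258 to 1173 CPM in male cisplatin and 1041 to 1275 CPM in male saline libraries, and fibroblast sums of 69.0 to 336 CPM in male cisplatin and 385 to 453 CPM in male saline libraries. Also called lower in males were 2 of 3 smooth muscle, 2 of 6 intercalated cell and 1 of 6 thick ascending limb genes tested. Called higher in males were 2 of 6 urothelial genes. Of 7 principal cell and 8 macrophage genes, 1 of each list was called higher and 1 lower in males. In the same comparison 13.2% of all genes tested were called higher and 7.54% lower. Of 5 tubular injury genes tested, 4 were called higher in males and 2 were called in females. In females 0 endothelial, fibroblast, smooth muscle, intercalated cell, thick ascending limb, urothelial, principal cell or macrophage genes were called. The share of all genes tested called in females was 0.272%. Of the thin limb and lymphocyte genes 0 were called in either sex. None of these markers was at 0 in every library of a group, and their part in the results for the 9 genes was not tested.

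How the 9 genes varied together over the 24 libraries is described here by Pearson's r of log2 CPM with no test, since the values share libraries and scaling. Gstm1 and Gstm2 went together (r = 0.88, and 0.87 after group means were taken off). Gstp1 had r of 0.59 with Gstm1 and 0.57 with Gstm2, and 0.89 and 0.84 after group means were taken off. Male cisplatin library 5 was the highest of the 24 libraries for Gstm1 (1028 CPM), Gstm2 (1143 CPM) and Gstp1 (366 CPM), and r without it was not computed. Gsto1, Mgst1 and Gsta4 also went together, with r of 0.90 for Gsto1 and Mgst1, 0.86 for Gsta4 and Mgst1 and 0.85 for Gsta4 and Gsto1, and 0.83, 0.82 and 0.84 after group means were taken off. Gstt1 had r of 0.84 with Gsta4, 0.82 with Mgst1 and 0.72 with Gsto1 (0.81, 0.80 and 0.69 after group means were taken off). The mu class genes had r between -0.08 and 0.03 with Gsto1, Mgst1 and Gsta4.

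Over all genes tested, the one most like Gsto1 was Cbr2, a carbonyl reductase (r = 0.975 over 24 libraries, 0.952 with group means taken off), and the ones most like Mgst1 were Slc38a6 (0.959) and Scnn1b (0.957), a subunit of the epithelial sodium channel. Gstp1 was most like Tmsb4x (0.934), which encodes an actin-binding thymosin, and Fau (0.930), which encodes a ribosomal protein fused to a ubiquitin-like one. Gsta4 was closest to Samm50 (0.927), of the mitochondrial outer membrane, Gstt1 to Glrx3 (0.934), a glutaredoxin, and Gstk1 to Ndufs7 (0.885), a subunit of respiratory complex I. Ggt1 was most like Slc47a1 (0.957), an exporter of organic cations, Slc27a2 (0.946), one of the 22 markers in the score, and Mep1a (0.944), a brush border protease.

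Other genes of glutathione metabolism were read from the same fits, and calls are by edgeR unless DESeq2 is named. Of 18 other transferases tested, 5 rose and 0 fell in males and 0 passed in females. DESeq2 called 6 higher and 1 lower in males, the lower one Gstt4 (-0.73 ± 0.28 by edgeR, adjusted p = 0.0652). In the mean effect over both sexes edgeR called 4 higher and 2 lower, the lower ones Gstt4 (-0.57 ± 0.20, adjusted p = 0.0347) and the prostaglandin D synthase Hpgds (-0.65 ± 0.23, adjusted p = 0.0338). Of all 18005 genes tested, 2911 were called higher and 1970 lower in that effect, so the lower calls were near the share of all genes. Gstt2, a theta class enzyme, had 100 ± 32.2 CPM in male cisplatin and 49.7 ± 7.41 CPM in male saline libraries (SD, n = 6 each), a log2 fold change of 1.01 ± 0.23 (adjusted p = 0.00564 by edgeR). The other 4 called higher in males were Mgst2 (log2 fold change 1.52), Gsta2 (1.05), Gstm7 (0.88) and Gstz1 (0.42), the maleylacetoacetate isomerase. Only the Gstt2 call held in all 31 alternative fits, and those of Mgst2, Gsta2, Gstm7 and Gstz1 were lost in 8, 8, 2 and 11 of them. Without male cisplatin library 5 these 4 had 1.22 (adjusted p = 0.0818), 0.99 (0.0591), 0.65 (0.0671) and 0.33 (0.107).

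Of 15 genes that break down glutathione or its conjugates, 2 rose and 1 fell in males and 0 passed in females. Oplah, the oxoprolinase, had 118 ± 38.0 CPM in male cisplatin and 67.9 ± 6.53 CPM in male saline libraries (log2 fold change 0.79 ± 0.18, adjusted p = 0.00455 by edgeR). Chac1, which cleaves glutathione inside the cell, had a log2 fold change of 1.96 ± 0.50, and Dpep1, the brush border dipeptidase that acts after Ggt1, fell by 0.92 on the log2 scale. The Dpep1 value was -0.52 with the tubule marker score in the fit (adjusted p = 0.192). Nat8, which acetylates cysteine conjugates, was the one gene of these lists that edgeR called between the sexes: it averaged 0.377 ± 0.208 CPM in female saline (SD, n = 7) and in male saline libraries 2.10 ± 1.14 CPM (n = 6), a log2 difference of -2.48 ± 0.52 (adjusted p = 0.0399), and -3.49 ± 0.66 under cisplatin (adjusted p = 0.0207). DESeq2 also called the exporter Abcc2 lower in females in both states, where edgeR gave -1.49 ± 0.33 under saline (adjusted p = 0.062) and -1.27 ± 0.36 under cisplatin (adjusted p = 0.208).

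Synthesis, reduction and use of glutathione held 17 tested genes, of which 5 rose and 1 fell in males and 0 passed in females. Pgd, which supplies NADPH, had 167 ± 27.8 CPM in male cisplatin and 118 ± 9.35 CPM in male saline libraries (log2 fold change 0.51 ± 0.10, adjusted p = 0.00275 by edgeR), and Gsr, which reduces oxidised glutathione, 141 ± 19.2 and 101 ± 6.46 CPM in the same groups (0.48 ± 0.12, adjusted p = 0.0107). The peroxidases Gpx4 (0.62) and Gpx1 (0.58) also rose, and the glutaredoxin Glrx fell by 0.37. Slc7a11, the cystine importer, had the highest fold change of the list, 3.91 ± 1.06 on the log2 scale, but it reached 17.7 CPM in 1 male cisplatin library while the group's median was 0.723 CPM, against a median of 0.296 CPM in male saline libraries, and with the tubule marker score in the fit it had 2.20 (adjusted p = 0.138). The subunits of the enzyme that limits synthesis, Gclc (0.36 ± 0.16, adjusted p = 0.104) and Gclm (0.15 ± 0.10, adjusted p = 0.306), did not pass in males. In the mean effect over both sexes 8 of the 17 genes were called higher and 0 lower. Gclc was among them (0.30 ± 0.11, adjusted p = 0.0492 by edgeR) and Gclm was not (0.14 ± 0.07, adjusted p = 0.15).

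Of 5 exporters of conjugates, only Abcc3 was called in males, with a log2 fold change of 1.15 ± 0.28 (adjusted p = 0.00796 by edgeR) and levels of 38.4 ± 15.5 CPM in male cisplatin and 17.3 ± 3.73 CPM in male saline libraries. The other 4 male estimates were below 0, and in the mean effect over both sexes the more abundant Abcc4 (-0.42 ± 0.15, adjusted p = 0.0345) and Abcc5 (-0.47 ± 0.16, adjusted p = 0.028) were called lower. Of 7 targets of the transcription factor NRF2 outside glutathione metabolism, 4 rose in males: Cbr3 (0.81), Srxn1 (0.77), Txnrd1 (0.54) and Txn1 (0.52). Nqo1, the usual reporter of that factor, had 0.11 ± 0.13 (adjusted p = 0.559). Hmox1, also not called, had the largest male estimate of the 7, 1.21 ± 0.44 (adjusted p = 0.0505). In the mean effect over both sexes 5 of the 7 were called higher and 0 lower, with Hmox1 among them (1.04 ± 0.31, adjusted p = 0.0155). Of 5 genes for NRF2 and its regulators, Keap1 (0.27) and Mafg (0.34) rose in males, and Nfe2l2, which encodes NRF2, had 0.42 ± 0.19 (adjusted p = 0.111). In the mean effect 2 of the 5 were called higher, Nfe2l2 (0.40 ± 0.13, adjusted p = 0.0285) and Mafg (0.24 ± 0.08, adjusted p = 0.0237). In females 0 genes of these 3 lists passed by edgeR, and DESeq2 called 1, Cbr3 (0.79 ± 0.20 by edgeR, adjusted p = 0.103). The shares of all genes called that are given above for males, for females and for the mean effect apply to the counts of these lists too. Among the called genes of glutathione and NRF2, Gsr, Gpx4, Pgd, Oplah, Abcc3, Txn1 and Cbr3 kept their male calls in all 31 alternative fits. The calls of Glrx, Mafg, Txnrd1 and Dpep1 were lost in 18, 10, 8 and 8 of them, those of Srxn1, Keap1, Slc7a11 and Gpx1 in 5, 4, 2 and 2, and that of Chac1 in 1. Without male cisplatin library 5, Dpep1 had -0.93 (adjusted p = 0.0525), Gpx1 0.39 (adjusted p = 0.0626) and Glrx -0.35 (adjusted p = 0.0733).

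**Figure D4:**
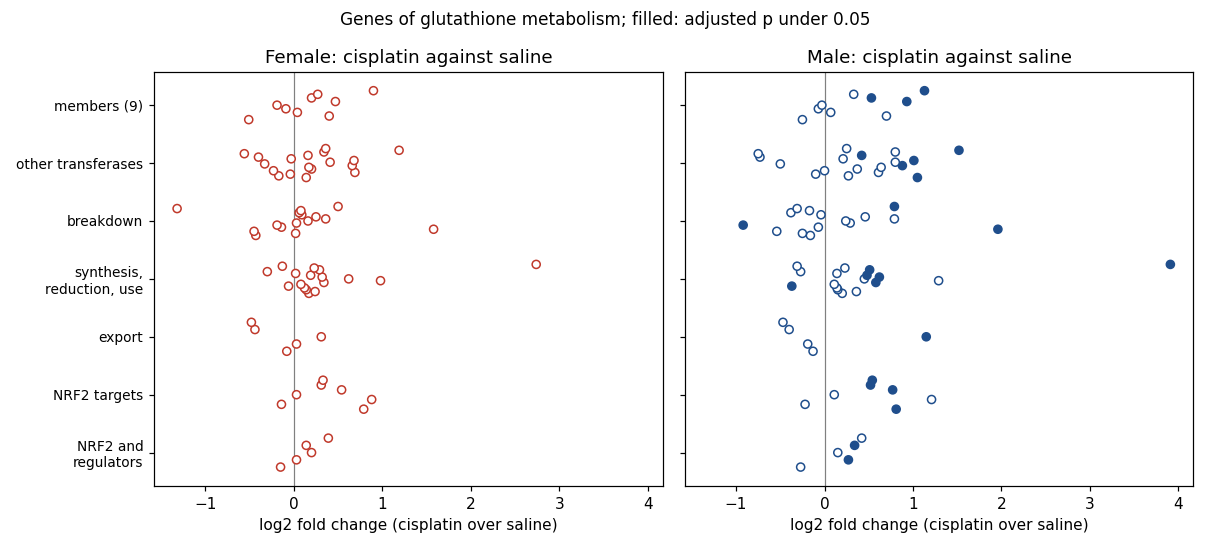
Log2 fold change of cisplatin over saline in females (left) and males (right) for the 9 genes and 6 lists of glutathione and NRF2 genes, 1 point per gene; filled points have an adjusted p under 0.05. Filled points occur only in the male panel, where Slc7a11 lies farthest right at 3.91.

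Promoters were read for a motif of NRF2, the core of the antioxidant response element, written TGACNNNGC and searched on both strands, in the 250 bases before and 50 after each annotated start (RefSeq, GRCm38.p6). Of 32851 promoters 12.4% held it. Entries were found for 8 of the 9 genes, 13 in all, and 4 of these held a match: 3 of Ggt1 and 1 of Mgst1. A longer form, with an A added at the end, was in 0 of the 13 and in 3.04% of all promoters. The stretch of Mgst1 is printed with the match in capitals, which reads as the motif on the opposite strand. It begins 56 bases before the RefSeq start whose window is chr6:138140277-138140576, and the window chr6:138141337-138141636 of Mgst1 held 0 matches. The stretch lies inside the GENCODE span of Mgst1 given above, which begins at 138140316. For Gsto1, the gene with the lowest p in males, the 247 bases before its first annotated exon are printed, and they hold no match.
Mgst1, chr6:138140461-138140489, plus strand: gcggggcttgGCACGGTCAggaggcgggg
Gsto1, chr19:47854723-47854969, plus strand: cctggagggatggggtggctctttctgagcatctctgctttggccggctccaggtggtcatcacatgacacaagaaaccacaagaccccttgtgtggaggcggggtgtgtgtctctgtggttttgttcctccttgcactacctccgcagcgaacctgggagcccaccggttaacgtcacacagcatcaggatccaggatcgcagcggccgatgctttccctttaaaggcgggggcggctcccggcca
These matches describe letters in a window and no binding was measured.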

How the data were processed

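The authors deposited raw counts, whole numbers of reads per Ensembl gene and library. Per the submitters' processing notes, Trim Galore 0.6.7, Subread 2.0.1, featureCounts, DESeq2 1.28.1 and mm10 were used, with no roles stated. Aligner, annotation release and strand setting: none was given in the sources used here. Symbols came from a reference table (52083 of 55416 identifiers), and exon lengths, coordinates and transcripts from GENCODE M21 (GRCm38). Genes were kept by filterByExpr with a minimum count of 10 and tested in R 4.3.3 with edgeR 4.0.16 (TMM scaling, quasi-likelihood fit with a mean per group over all 24 libraries, Benjamini-Hochberg adjustment over 18005 genes, called at adjusted p under 0.05). CPM use TMM-scaled library sizes, log2 CPM a prior count of 2, and CPM per kb the summed exon length. The script was tested on simulated counts. Library totals averaged 22.6 ± 2.71 in units of 1000000 counts (SD, n = 24). No library was a copy of another: the chi-square per gene was at least 7.88 over 61 pairs within groups. Correlations used exact permutations for groups of 6 or 7 libraries and 100000 permutations otherwise.

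The 9 genes, the lists of glutathione, NRF2 and marker genes and the tests were chosen with earlier results of these data known. The 9 genes are given whatever their outcome. Of the other lists the text names members called in either sex, up to 8 per list, and a few others, Gclc, Gclm, Nqo1, Hmox1, Nfe2l2, Nat8, Mgst3, Gstt4, Hpgds, Abcc2, Abcc4 and Abcc5, which were chosen after their values were seen, and the 1 to 3 genes most like each of the 9 are the first by correlation. Alternatives were RLE scaling, DESeq2 1.42.0, no filter, the replicate number as a block, the tubule marker score as a covariate, only the groups compared, each library left out, and 3 libraries (male cisplatin 5, female saline 1 and 6) left out together. These 3 were set by name as divergent in composition, with no stated rule. Female saline 1 lay at its group's median for the tubule marker score (4.56) and the ribosomal share (2.39%). Gsta13 was not matched, Gsta1 and Gstp3 had too few counts to be tested, and Dpep2, whose symbol belongs to 2 identifiers, was left out.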

Additional observations from a re-analysis of the deposited data

Results flagged for a closer look

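Each of the 36 combinations of the 9 genes and 4 groups was checked for a library far from the others of its group on the log2 scale, and such a check picks out about 1 in 20 groups when nothing differs. It picked out 3. In male cisplatin library 5, Gstm2 was at 1143 CPM where the other 5 libraries lay between 524 and 670 CPM, and Gstp1 was at 366 CPM where the others lay between 140 and 163 CPM. This is the library whose ribosomal protein share of 5.75% was the highest of the 24. In male cisplatin library 6, Mgst1 was at 28.4 CPM where the others lay between 70.4 and 119 CPM, and this is the library with the lowest Lcn2 of its group, 213 CPM. No gene of the 9 was picked out for a sex difference in its cisplatin effect.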

How the results depend on the processing

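The male calls of Gsto1 and Mgst1 held in every alternative run, and the counts among the 9 genes stayed at 0 in females, in the interaction and between the sexes. Genes called over the whole table moved more. In males 3731 became 2019 with the tubule marker score and 2402 with only the groups compared. In females 49 became 241 with DESeq2, 85 with no filter, 22 with the score, 20 with only the groups compared and 32 without the 3 libraries left out together. The mean effect gave 2964 calls with the score (4881 without it), female against male under saline 58 with DESeq2 and 57 with the score (34), and under cisplatin 127 and 51 (28). The replicate number as a block left 16 calls in females and 2 of the 9 genes in the mean effect, and the numbers carry no pairing: same-numbered libraries of 2 groups correlated at medians of -0.092 to 0.011 after group means were taken off.

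Leaving out 1 library at a time gave 2554 to 5268 calls in males, 21 to 139 in females, 3336 to 6025 for the mean effect, 21 to 41 between sexes under saline and 12 to 120 under cisplatin, and 2 to 5 of the 9 genes in the mean effect. It moved Gstm2 in males between -0.24 and 0.04, Gstk1 between -0.13 and 0.15 in males and between -0.05 and 0.10 in the mean effect, and Gstp1 between -0.31 and 0.09 for female against male under cisplatin. The score turned Ggt1 to 0.42 in males, 0.05 in females and 0.23 in the mean effect, and Gstm2 in males to 0.01. Without the 3 libraries Gstk1 was -0.12 in males and -0.06 in the mean effect, and Gstp1 0.03 in the interaction and 0.09 between sexes under cisplatin. The cause of these shifts was not tested. At totals of 18.1 to 27.3 in units of 1000000 counts, low genes such as Nat8 and Slc7a11 are limited by depth as well as by the spread between libraries.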
